A study of Homo sapiens with 19 samples.

Results

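Replication-dependent histone genes encode the linker histone H1 and the core histones H2A, H2B, H3 and H4 that package newly made DNA. They were followed here in 501Mel cells, a human melanoma line, and in Hermes 3A, an immortal melanocyte line. The members were all genes whose symbol starts with HIST1H, HIST2H, HIST3H or HIST4H, or whose current name marks a gene of these clusters, with 16 pseudogenes left out. This gave 36 of the 44717 gene identifiers listed: 6 H1 genes, 9 H2A genes, 10 H2B genes, 5 H3 genes and 6 H4 genes. A further 35 of 70 coding genes with such symbols in the GENCODE 29 annotation had no identifier among those named here and were not analysed. Of the 36 members, 4 were named only by the study's supplementary lists.

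501Mel cells carried shBRG1 or the scramble control shSCR1, with 3 libraries each, or shMITF or the scramble control shSCR2, with 2 libraries each. The sample titles do not tie a scramble control to a knockdown. The shSCR1 and shBRG1 libraries listed 42224 gene identifiers, and those of shSCR2 and shMITF 41467. Pairing shSCR1 with shBRG1 and shSCR2 with shMITF is an assumption, and the control so paired is called a knockdown's own control. Hermes 3A cells carried shSCR, shBRG1 or shMITF, with 3 libraries each, so that both Hermes 3A comparisons share their control libraries. The Hermes 3A shMITF libraries listed 34033 gene identifiers, while those of shSCR and shBRG1 listed 42224. Only identifiers listed for every library of a fit were tested. Per the study's methods, the serum medium of Hermes 3A cells also held TPA, cholera toxin, stem cell factor and endothelin-1, which are not named for 501Mel cells. All cells had received a lentiviral vector, and a single shRNA stood for each target. The labels do not say how shSCR1 and shSCR2 differ, and although the methods speak of repeated experiments, no label ties a library to an infection or culture of its own. The p-values below therefore measure only the spread between these libraries, which may be technical. Between 29158502 and 78857900 reads were counted on genes in a library. SMARCA4, the gene of the chromatin remodelling ATPase BRG1, fell by 2.36 on the log2 scale with shBRG1 in 501Mel cells (SE 0.05, edgeR adjusted p = 3.7e-21) and by 2.38 in Hermes 3A cells (SE 0.05, adjusted p = 1.6e-24). MITF, the gene of the melanocyte transcription factor, fell by 1.06 with shMITF in 501Mel cells (SE 0.14, adjusted p = 0.0014) and had a log2 fold change of -0.85 in Hermes 3A cells (SE 0.19, adjusted p = 0.019). The log2 fold change in 501Mel cells was nearer to 0 than -1 without the second shSCR2 library (-0.99), without the first shMITF library (-0.98), when scaled by library sizes (-0.96) and against shSCR1 and shSCR2 pooled (-0.58, adjusted p = 0.41). In Hermes 3A cells the value was -1.06 without the second shMITF library (adjusted p = 0.0034). MITF was also lower with shBRG1, by 1.55 in 501Mel cells (SE 0.06, adjusted p = 8.0e-16). In Hermes 3A cells its log2 fold change with shBRG1 was -0.43 (SE 0.04, adjusted p = 1.3e-09). The part of this lower MITF in the shBRG1 values was not tested. Of 8 melanocyte markers DCT had the lowest count in any library, at 38, and the other 7 had 1773 counts or more in every library.

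Most messenger RNAs end in a poly(A) tail, but those of replication-dependent histones end just after a conserved stem-loop that the protein SLBP binds. Their synthesis is tied to S phase, and several of these genes are also known to give longer, polyadenylated transcripts in cells that have left the cycle. The genes lie in clusters, many as pairs of an H2A and an H2B gene that are read away from each other from a shared stretch of DNA.

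The stem-loop letters GGNNCTTTNNAGNNCC were found in an annotated GENCODE 29 transcript of 18 of the 36 members, and in 0.51% of 19598 other coding genes. They are printed because the position of this loop tells a short histone message from a longer one. Capitals mark the paired stem, and the loop is in lower case.
HIST1H2AC, HIST2H2BE, HIST2H2BF, HIST3H2A and 5 other members: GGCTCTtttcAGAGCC
HIST1H2BC, HIST1H2BD and HIST3H3: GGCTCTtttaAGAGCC
HIST1H2AG: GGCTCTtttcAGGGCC
HIST1H4E, HIST1H4H, HIST1H4J and HIST4H4: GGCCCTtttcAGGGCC
HIST1H4I: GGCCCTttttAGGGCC
The transcript that holds the loop went on for 1128 bases past this loop in HIST1H2AC, 1729 in HIST2H2BE, 1761 in HIST1H2AG, 1655 in HIST1H4H and 1022 in HIST1H4E. It ended 39 bases past the loop in HIST1H2BD and HIST1H2AI, and 6 bases past it in HIST1H4J. Each value is of the transcript with the loop that goes on farthest, so transcripts without the loop do not enter. HIST1H2BD has 2 annotated transcripts, with up to 2 exons, so its value does not mark it as a gene of short messages only. The read counts are sums per gene, so that short and long messages of one gene cannot be told apart in them. Where no loop was found, these letters are only not in the annotated transcripts, as for HIST1H1C.

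The 250 bases before the start site of 3 genes are shown, since these genes gave the largest or most opposed changes below. They come from RefSeq on GRCh38.p14, read 5′ to 3′ on the strand of the gene. Capitals mark the octamer ATTTGCAT (bound by OCT1), the CCAAT box (CCAAT), the TATA box (TATAAA) and the H1 box (AAACACA), each on either strand.
HIST1H2AC, chr6:26123922-26124171, plus strand: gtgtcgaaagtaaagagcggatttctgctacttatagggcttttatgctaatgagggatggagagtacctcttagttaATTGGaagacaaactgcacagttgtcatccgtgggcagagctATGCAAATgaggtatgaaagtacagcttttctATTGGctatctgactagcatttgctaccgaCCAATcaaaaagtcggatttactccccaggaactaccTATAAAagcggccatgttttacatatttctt
HIST1H1C, chr6:26056471-26056720, minus strand: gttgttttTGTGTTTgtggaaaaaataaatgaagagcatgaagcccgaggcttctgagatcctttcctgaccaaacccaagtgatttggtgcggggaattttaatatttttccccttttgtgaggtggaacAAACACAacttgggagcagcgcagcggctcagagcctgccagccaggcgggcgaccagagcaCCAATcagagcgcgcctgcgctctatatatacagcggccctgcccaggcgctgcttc
HIST2H2BE, chr1:149886683-149886932, minus strand: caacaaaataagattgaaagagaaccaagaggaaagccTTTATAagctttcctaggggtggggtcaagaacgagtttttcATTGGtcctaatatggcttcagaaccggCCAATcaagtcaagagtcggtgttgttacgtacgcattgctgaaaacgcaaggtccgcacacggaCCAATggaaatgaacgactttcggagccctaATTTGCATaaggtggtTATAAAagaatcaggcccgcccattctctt
In windows from 250 bases before to 50 after the start, which were held for 28 members, the octamer was present in 5 of 7 H2A genes, 5 of 9 H2B genes and 1 of 3 H3 genes, and in 1.77% of 35116 promoters of this length. The H1 box was present in 6 of 6 H1 genes and in 1 other member, HIST2H2AC, against 5.64% of all promoters. The CCAAT box was in 25 members (34.6% of all promoters) and the TATA box in 18 (11.5%). Both genes of a divergent pair can hold the same copy of a motif in their windows. A match is a description of the letters and was not tested against the counts.

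Levels are given as CPM, the counts of a gene relative to the total of its library, scaled by edgeR's TMM factors over all 19 libraries together. A small number of genes made up most of the signal. HIST1H2AC averaged 29.6 CPM over the 19 libraries, HIST1H1C (the linker histone H1.2) 26.8, HIST1H2BK 22.6, HIST2H2BE 11.8, HIST1H2BD 8.88 and HIST3H2A 8.08, which is together 83.3% of the summed level of all members. Per kilobase of exon the order was HIST1H2BK (59.3 CPM per kb), HIST1H1C (41.7), HIST1H2AC (17.7), HIST1H2BD (10.2), HIST3H2A (9.03) and HIST2H2BE (5.37). These lengths come from the GENCODE annotation named above, while the annotation used for counting is not given. The counts and the lengths need not cover the same exons, so this order is uncertain. HIST1H2BK, which came first, had the shortest exon length of these genes, at 381 bases. HIST1H4H led the H4 genes with 3.26 CPM and HIST1H3D the H3 genes with 1.04 CPM. The remaining genes were low: 20 members averaged under 1 CPM and 7 never passed 10 counts in a library. HIST1H4C had between 1 and 17 counts, and HIST2H2AA3, listed for 12 libraries, had 1 count in all.

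A set of 8 members known from textbook background to give polyadenylated transcripts (HIST1H1C, HIST1H2AC, HIST1H2BC, HIST1H2BD, HIST1H2BK, HIST2H2BE, HIST3H2A and HIST4H4) held between 77.2% and 89.6% of the summed level in each library. The set includes the 6 most abundant members, which made up 83.3% by themselves. Its high share thus follows largely from the choice of members and does not show which of their messages carried a tail. The libraries were made from total RNA depleted of ribosomal RNA, so that RNA without a tail could enter them. Other short RNAs of that kind had low counts: the spliceosomal RNA gene RNU1-1 had 0 to 2 counts in a library and RNU7-1, whose RNA helps to cut histone messages, 0 to 7, while the small nucleolar RNA gene SNORA73B had 15 to 492. Short RNAs can be lost from a library for reasons of length, and their part in the low levels was not tested.

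Some members share sequence with other genes. The share of their 50-base windows found in no other gene was 25.9% in HIST1H2BK, 37.7% in HIST1H2AI, 18.8% in HIST1H4J and 0% in HIST1H3D, and it was also under 40% in HIST2H3D, HIST1H2AD and HIST2H2AA3. Reads of these 7 genes are uncertain where the counting could split them between copies. For HIST1H1C, HIST1H4H and HIST1H4E every window was found in no other gene, and for HIST1H2AC 99.6% were.

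The summed level of the 35 members listed everywhere differed between groups, and most of all between both scramble groups of 501Mel cells. It was 232, 205 and 191 CPM in the shSCR1 libraries, but 17.8 and 24.9 CPM in the shSCR2 libraries. With shBRG1 it was 158, 161 and 152 CPM, and with shMITF 57.1 and 80.9 CPM. The shMITF libraries thus lay above their own control and below the other scramble group and the shBRG1 libraries, with no overlap. In Hermes 3A cells the range was narrower, from 105 to 116 CPM with shSCR, 142 to 152 with shBRG1 and 117 to 152 with shMITF.

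**Figure D1:**
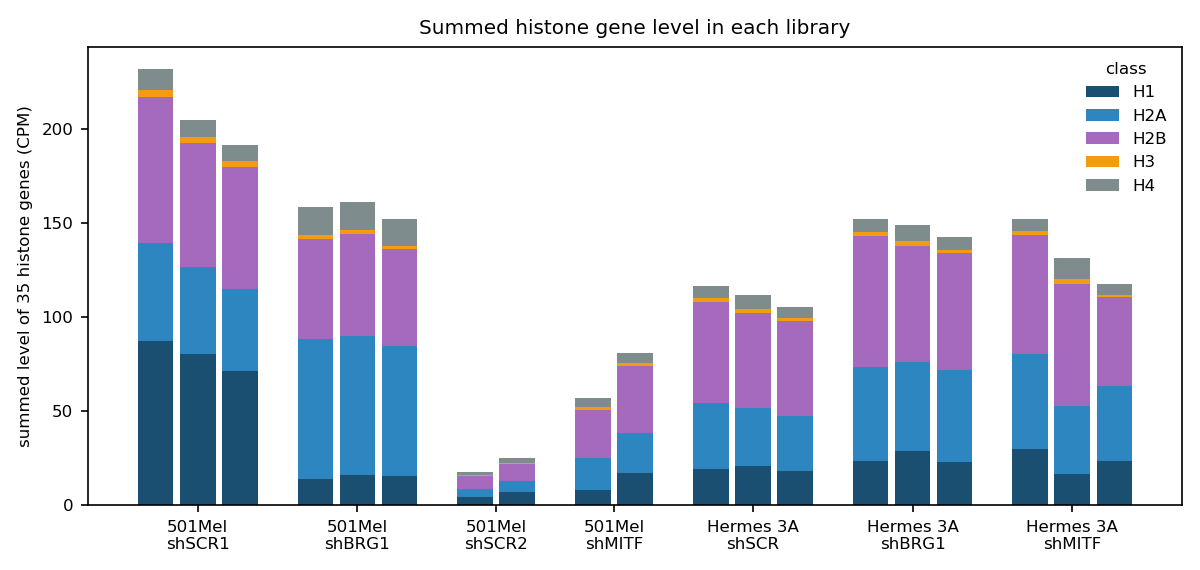
Summed level of 35 histone genes in each of the 19 libraries, in CPM scaled over all libraries, 1 bar per library and stacked by histone class. The shSCR2 libraries of 501Mel cells reach 17.8 and 24.9 CPM, while those of shSCR1 lie between 191 and 232 CPM.

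The gap between the scramble groups ran through most members. Of the 35 members, 26 had every shSCR1 library above every shSCR2 library, 2 had every one below (HIST1H4C and H2BFS, both at 17 counts or fewer) and the others overlapped. HIST1H2AC averaged 37.4 ± 3.14 CPM over the 3 shSCR1 libraries (mean ± SD) against 1.25 ± 0.17 CPM over the 2 shSCR2 libraries, which is 30.0 times as much. HIST1H1C averaged 78.4 ± 7.73 against 5.01 ± 1.78 CPM, or 15.6 times as much. The narrowest gaps among the abundant genes were those of HIST1H2BK (5.69 times) and HIST3H2A (2.28 times). Each knockdown in 501Mel cells was set against the scramble group assumed to be its own. Because of the gap, the result against shSCR1 and shSCR2 pooled is given beside it. These are bulk samples, in which fewer cells of a type and less RNA per cell cannot be told apart.

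**Figure D2:**
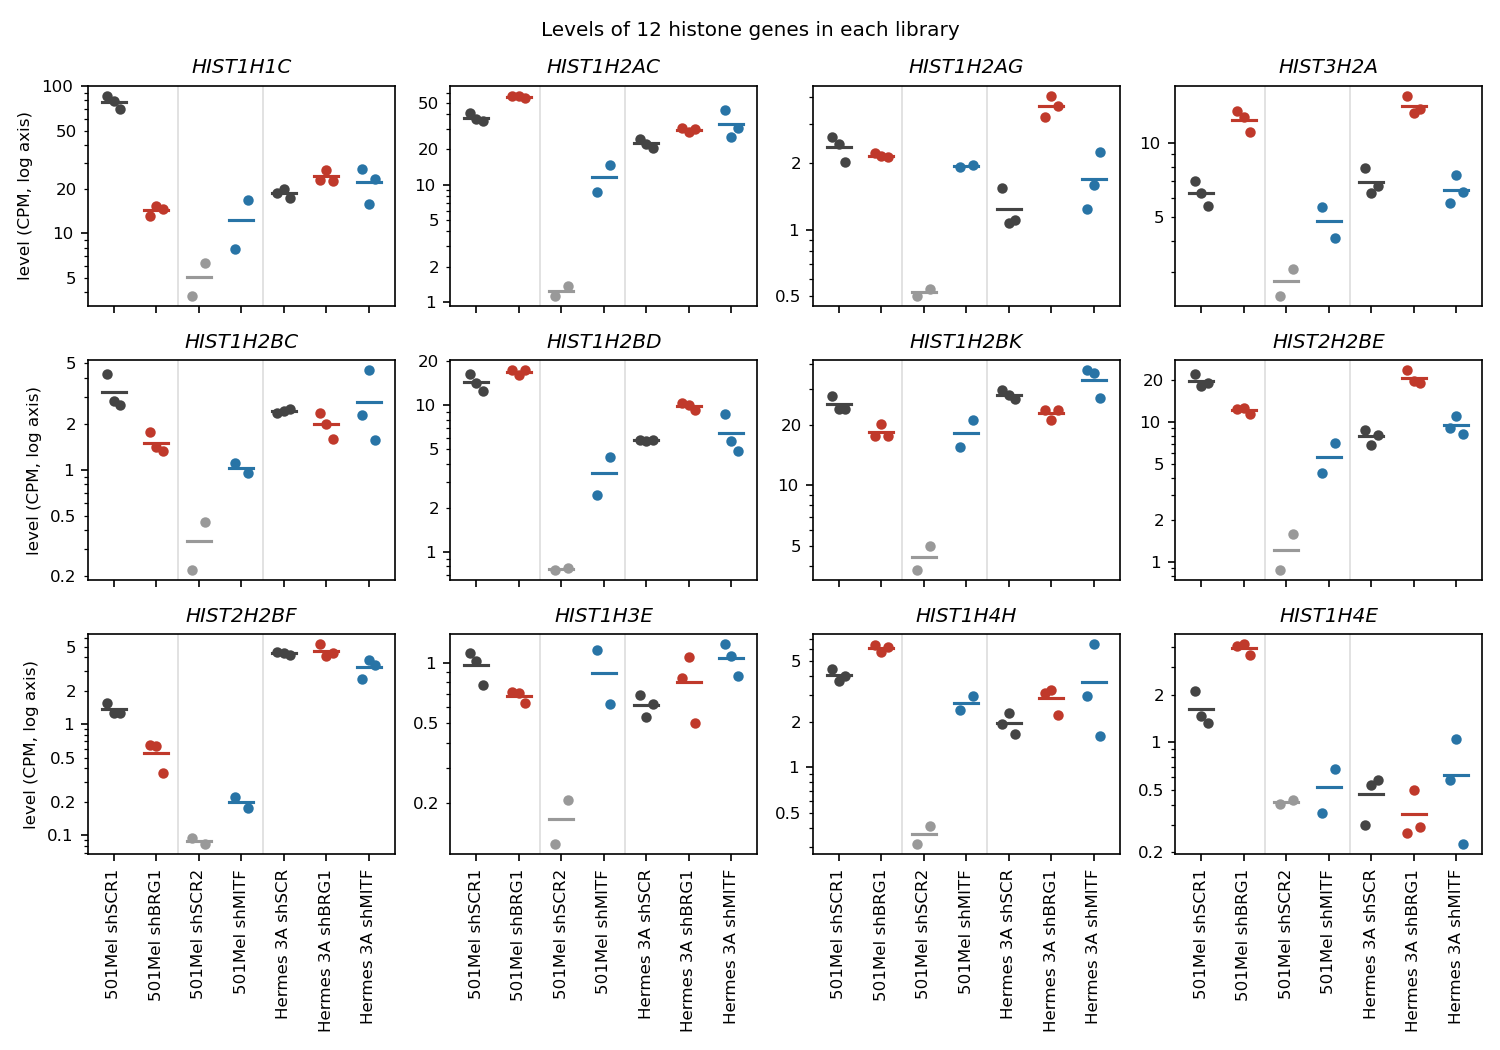
Level of 12 histone genes in every library, in CPM on a log axis. Points are libraries, horizontal bars are group means, and vertical lines part the 3 sets of libraries with their own controls. The grey shSCR2 points are the lowest of all groups for HIST1H1C, HIST1H2AC and HIST2H2BE, among others.

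shBRG1 in 501Mel cells moved the histone genes in both directions. A call needed a log2 fold change beyond 1 in either direction together with an adjusted p under 0.05 (edgeR's quasi-likelihood test, Benjamini-Hochberg adjustment over all genes tested). Of 24 members that passed the filter on low counts, 3 were called higher, while 21.7% of all 20514 genes tested were, and 4 were called lower, while 17.4% of all genes were. Both shares are near or under the background. The median log2 fold change of the 24 members was -0.52, and that of all genes 0.05. At an adjusted p under 0.05 with no threshold on the fold, 7 members were higher and 13 lower, while 41.2% and 39.1% of all genes were. Scaling by library sizes in place of TMM moved the median of all genes by 0.35, and 4 members were then called higher and 1 lower.

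HIST1H1C gave the largest change. Its level was 85.8, 78.9 and 70.4 CPM with shSCR1 and 13.2, 15.3 and 14.5 CPM with shBRG1. The groups were far apart, and the level fell 5.67-fold (log2 fold change -2.50, SE 0.07, adjusted p = 1.1e-19). HIST1H1E, the other H1 gene tested, had a log2 fold change of -0.87 (SE 0.22, adjusted p = 0.00089), with no overlap between groups and 41.3 counts on average in its higher group. H1 genes encode the linker histone, which binds where DNA enters and leaves the nucleosome.

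The H2A and H2B genes, which form the dimers at the flanks of the nucleosome, split. HIST1H2BC went from 4.28, 2.81 and 2.66 CPM with shSCR1 to 1.77, 1.41 and 1.33 CPM with shBRG1, and fell by 1.17 on the log2 scale (SE 0.17, adjusted p = 1.3e-06). Its groups did not overlap. Without the first shSCR1 library, the highest, its log2 fold change was -0.93 and it was not called, and the count of members called lower was then 2. HIST2H2BF fell by 1.35 (SE 0.21, adjusted p = 4.9e-06), from a mean of 63.0 counts in its higher group. HIST1H2AI, with 18.0 counts on average in its higher group and overlapping levels, fell by 1.02 (SE 0.38, adjusted p = 0.019) and lost its call under DESeq2 (adjusted p = 0.069) and without the first shSCR1 library (log2 fold change -0.58) or shBRG1 library 1 or 3 (-1.01 and -0.84).

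Other dimer genes changed by less than the threshold. HIST2H2BE was 22.0, 18.1 and 19.0 CPM with shSCR1 and 12.3, 12.7 and 11.4 CPM with shBRG1, a log2 fold change of -0.75 (SE 0.08, adjusted p = 3.5e-09). HIST1H2BJ had one of -0.94 (adjusted p = 1.4e-07) and HIST1H2BK of -0.50 (adjusted p = 8.5e-07), also without overlap between groups. Against these, HIST1H2AC was 40.9, 36.1 and 35.1 CPM with shSCR1 and 57.1, 57.0 and 54.5 CPM with shBRG1, every shBRG1 library being above every control, at a log2 fold change of 0.54 (SE 0.06, adjusted p = 7.1e-09). HIST3H2A was 7.0, 6.29 and 5.55 CPM against 13.4, 12.6 and 11 CPM with shBRG1, a log2 fold change of 0.92 (SE 0.09, adjusted p = 2.0e-09), and was called at 1.27 with library sizes in place of TMM. By class, the median log2 fold change was 0.43 over 6 H2A genes tested and -0.75 over 9 H2B genes. The H2A genes include HIST1H2AK, whose name came from the study's list of genes higher with shBRG1 in these cells. The H2A median is thus not independent of that list.

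The 3 members called higher were HIST1H4I, HIST1H4E and HIST1H2AK. HIST1H4E, an H4 gene, went from 2.10, 1.47 and 1.32 CPM to 4.11, 4.18 and 3.56 CPM (log2 fold change 1.21, SE 0.15, adjusted p = 6.9e-08). HIST1H4I went from 1.08, 0.736 and 0.686 CPM to 2.44, 2.75 and 2.06 CPM (log2 fold change 1.47, SE 0.18, adjusted p = 9.8e-08). HIST1H2AK rose by 1.22 (SE 0.23, adjusted p = 4.8e-05), with 64.3 counts on average in its higher group. In all 3 every shBRG1 library was above every control. The names of these 3 identifiers came from the study's list of genes higher with shBRG1 in these cells, so that the count is no independent evidence of a rise, and without them 0 members were called higher (7 were at an unadjusted p under 0.05 with them included, and DESeq2 called the same number as edgeR, 3).

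Small RNAs without a tail moved in the same libraries. Of 6 tested, 5 were called higher with shBRG1 in 501Mel cells, while 21.7% of all genes were. Among them was SNORA73B at a log2 fold change of 2.72 (SE 0.13, adjusted p = 2.6e-15). With shBRG1 in Hermes 3A cells 0 of 2 tested were called higher and 1 lower, while 5.78% and 3.47% of all genes were. In 501Mel cells the summed level of the 14 such genes listed was 10.2 to 12.7 CPM with shBRG1 and 2.36 to 2.74 CPM with shSCR1. Its part in the histone values was not tested. With shSCR1 and shSCR2 pooled as controls, 3 members were called higher (HIST1H4E, HIST1H4I and HIST3H2A), while 0 were called lower. HIST1H4E and HIST1H4I were named by the study's list of genes higher with shBRG1. The share of all genes called in this pooled fit is not given, so these counts cannot be read against a background. The log2 fold change of HIST1H1C was then -1.78 (adjusted p = 0.16), and the median over the members tested was 0.09.

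**Figure D3:**
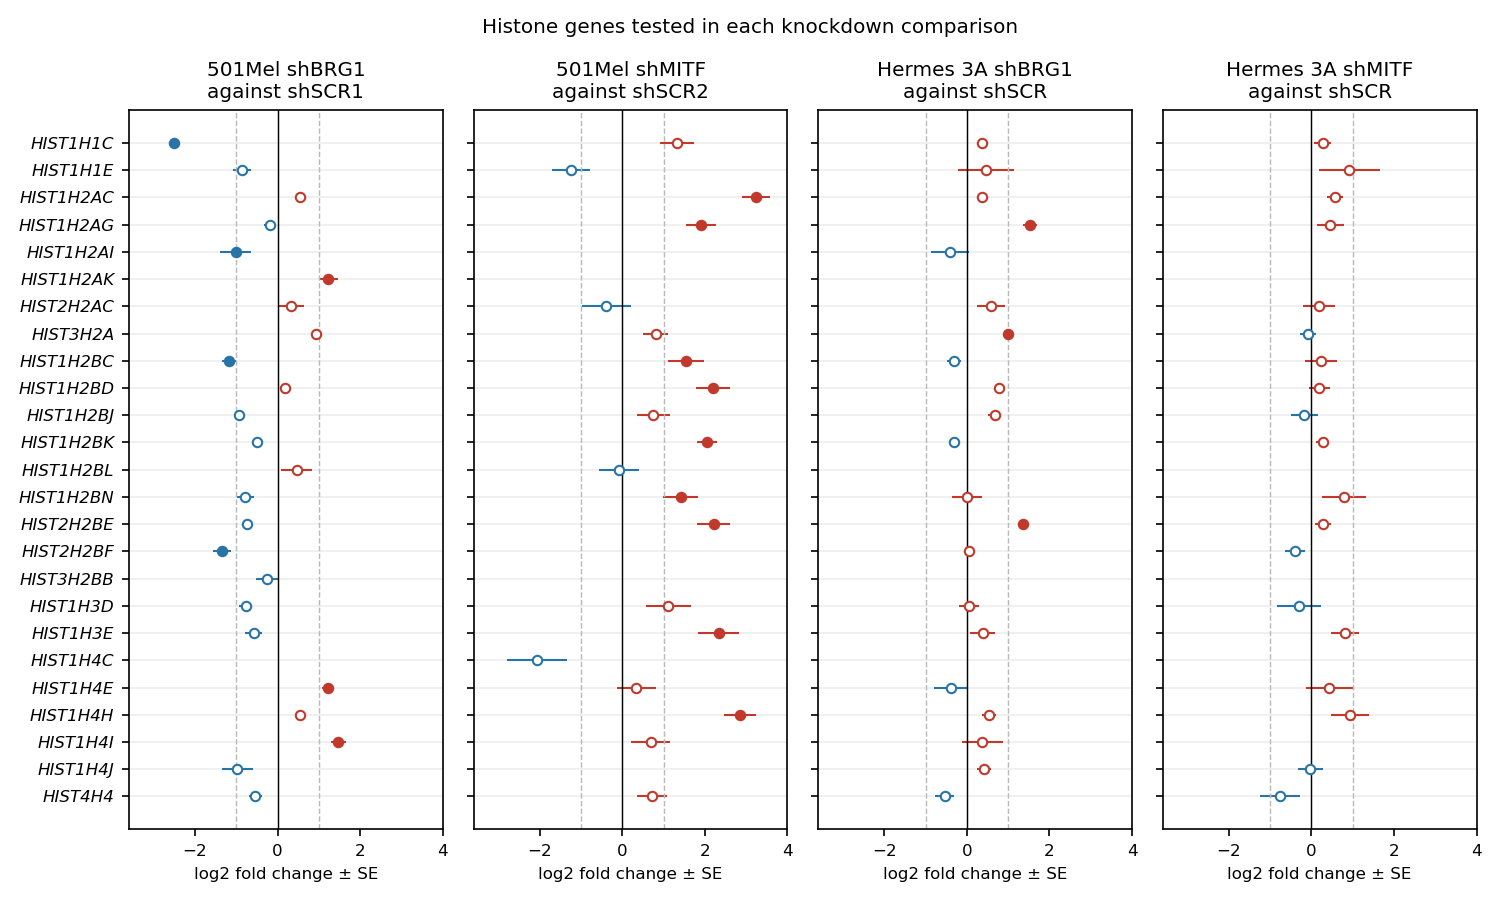
Log2 fold change with its SE for each histone gene tested, in the 4 comparisons. Filled points were called, open points were not, and dashed lines mark an absolute log2 fold change of 1. HIST1H1C lies at -2.50 with shBRG1 in 501Mel cells, and 9 genes lie right of the threshold and are called with shMITF.

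shMITF in 501Mel cells went with higher levels of many histone genes than its own scramble control shSCR2. Of 20 members tested, 9 were called higher, while 5.59% of all 17701 genes tested were. None was called lower, while 3.4% of all genes were (2 were lower at an unadjusted p under 0.05, and DESeq2 called 0). The median log2 fold change of the 20 members was 1.22, and that of all genes 0.01. The 9 were 2 of 4 H2A genes, 5 of 7 H2B genes, 1 of 2 H3 genes and 1 of 5 H4 genes.

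HIST1H2AC was 1.13 and 1.37 CPM with shSCR2 and 8.63 and 14.7 CPM with shMITF. Both shMITF libraries were above both controls, and the log2 fold change was 3.24 (SE 0.34, adjusted p = 0.00070). HIST1H4H was 0.313 and 0.415 CPM with shSCR2 and 2.37 and 2.93 CPM with shMITF (log2 fold change 2.85, SE 0.39, adjusted p = 0.0018). HIST2H2BE was 0.876 and 1.58 CPM with shSCR2 and 4.30 and 7.04 CPM with shMITF (log2 fold change 2.21, SE 0.39, adjusted p = 0.0054). These genes code for an H2A, an H4 and an H2B protein in turn, and their groups did not overlap.

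HIST1H2BD was 0.751 and 0.775 CPM with shSCR2 and 2.44 and 4.44 CPM with shMITF (log2 fold change 2.20, SE 0.41, adjusted p = 0.0066). HIST1H2BK was 3.82 and 5.05 CPM against 15.4 and 21.1 CPM (log2 fold change 2.06, SE 0.25, adjusted p = 0.0011). Another 4 members were called with fewer counts, between 35.5 and 94.0 on average in the shMITF libraries: HIST1H3E (log2 fold change 2.33, named only by a supplementary list of genes near binding sites), HIST1H2AG (1.91), HIST1H2BC (1.55) and HIST1H2BN (1.42). HIST1H2BC and HIST1H2BN lost their call under DESeq2 (adjusted p = 0.088 and 0.18), HIST1H2BN without any one of the 4 libraries and HIST1H2BC without the first shSCR2 library or either shMITF library. HIST1H1C, at 3.75 and 6.27 CPM against 7.79 and 16.9 CPM, had a log2 fold change of 1.32 (SE 0.42, adjusted p = 0.067) and was called under DESeq2 (adjusted p = 0.0050).

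These rises depend on the control. With the shSCR1 libraries pooled with shSCR2, none of the 9 was called higher (DESeq2 was not run on this choice), HIST1H2AC was at -0.97 (adjusted p = 0.71) and the median over the members tested was -0.85. Of the members not called, HIST1H4C had, against shSCR2 alone, a log2 fold change of -2.06 (SE 0.72, adjusted p = 0.075) on 12 counts in its higher group, and HIST1H1E of -1.25 (SE 0.46, adjusted p = 0.086).

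**Figure D4:**
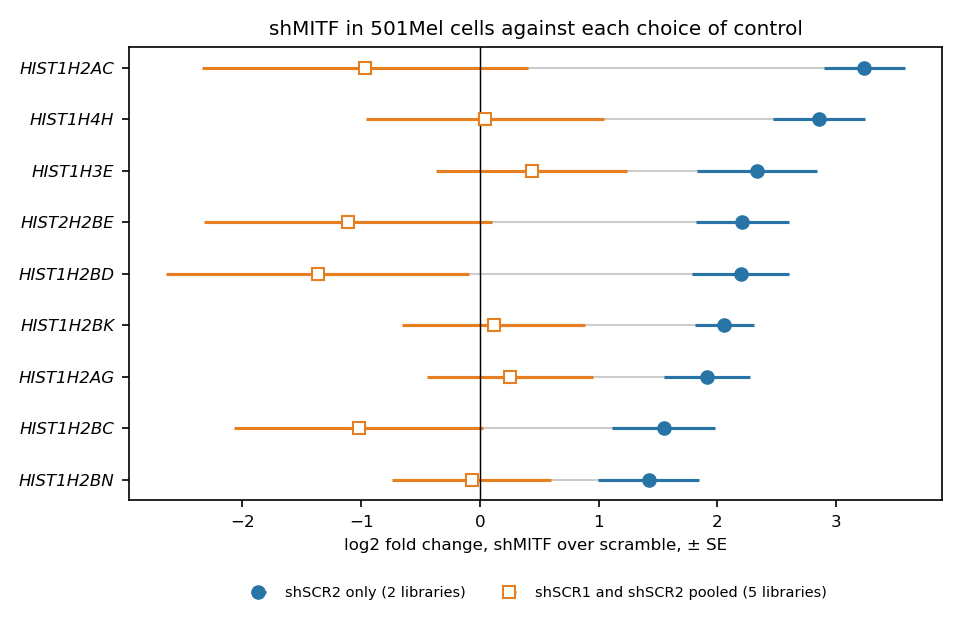
Log2 fold change with its SE for the 9 histone genes called with shMITF in 501Mel cells, against shSCR2 alone (filled circles) and against both scramble groups pooled (open squares). All 9 circles lie between 1.42 and 3.24, while the squares lie between -1.37 and 0.43.

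shBRG1 in Hermes 3A cells raised 3 of 21 members tested, while 5.78% of all 17222 genes tested were called higher. None was called lower, while 3.47% of all genes were (2 were lower at an unadjusted p under 0.05, and DESeq2 called 0). The median log2 fold change of the members was 0.38, and that of all genes 0.01. Without the threshold on the fold, 9 were higher and 1 lower at an adjusted p under 0.05, while 28.2% and 28.6% of all genes were.

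HIST2H2BE was 8.76, 6.88 and 8.08 CPM with shSCR and 23.5, 19.8 and 18.9 CPM with shBRG1. The groups did not overlap and the log2 fold change was 1.37 (SE 0.09, adjusted p = 2.6e-13). HIST1H2AG was 1.54, 1.07 and 1.11 CPM with shSCR and 3.26, 4.04 and 3.62 CPM with shBRG1 (log2 fold change 1.53, SE 0.18, adjusted p = 2.0e-08). HIST3H2A was 7.87, 6.28 and 6.65 CPM with shSCR and 15.4, 13.2 and 13.7 CPM with shBRG1 (log2 fold change 1.00, SE 0.09, adjusted p = 3.4e-10), just past the threshold. It lost its call when shSCR library 2 or 3 or shBRG1 library 1 was left out, at log2 fold changes between 0.93 and 0.97.

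Next below the threshold were HIST1H2BD, from a mean of 5.77 ± 0.05 CPM (SD, n = 3) to 9.93 ± 0.52 CPM (SD, n = 3) at a log2 fold change of 0.77 (adjusted p = 6.4e-08), and HIST1H2BJ at 0.68 (adjusted p = 0.00050). HIST1H2AC and HIST1H1C had log2 fold changes of 0.37 each. The member that was lower was HIST1H2BK, at -0.32 (SE 0.07, adjusted p = 0.00019). The second shBRG1 library stood apart: the mitochondrial ribosomal RNA gene MT-RNR1 was at 1401 CPM there against 304 and 380 CPM in the others, SNORA73B had 491 counts against 54 and 68, and the linker histone genes HIST1H1D and HIST1H1E had 29 and 54 counts, against 3 and 8, and 11 and 2. HIST1H1D did not pass the filter and HIST1H1E was not called, and without this library 3 members were called higher as before.

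shMITF in Hermes 3A cells, set against the same shSCR libraries, called 0 of 19 members in either direction, while 3.35% of all 16508 genes tested were called higher and 4.04% lower. The shMITF libraries listed fewer identifiers than those of shSCR (34033 against 42224). Any difference in processing behind these lists cannot be told apart from shMITF. DESeq2 also called 0, and 2 members were higher and 0 lower at an unadjusted p under 0.05. The median log2 fold change of the members was 0.27, and that of all genes 0.05. HIST1H2AC was 24.6, 22.5 and 20.5 CPM with shSCR and 43.1, 25.8 and 30.2 CPM with shMITF, the first shMITF library being the highest of all 19 outside 501Mel shBRG1 (log2 fold change 0.57, SE 0.20, adjusted p = 0.081). HIST2H2BE was 9.07, 11.1 and 8.25 CPM with shMITF and overlapped its control (log2 fold change 0.28, SE 0.19, adjusted p = 0.35). The spread between the shMITF libraries was wide, as for HIST1H4H at 2.93, 6.42 and 1.61 CPM. The first shMITF library stood apart: MT-RNR1 was at 1620 CPM there against 547 and 201 CPM, SNORA73B had 126 counts against 52 and 15, and HIST1H1E had 44 counts against 12 and 3. Their part in the histone values was not tested.

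The effects of a knockdown were then set against each other between the cell lines, in 1 fit of the 4 groups concerned, as the log2 fold change in 501Mel cells minus that in Hermes 3A cells. Cell line and culture medium cannot be told apart in these differences. For shBRG1, 6 of 24 members were called below 0, while 14.9% of all 21697 genes tested were, and 1 was called above 0, while 12% were. The median difference was -0.73 over the members and -0.03 over all genes. HIST1H1C differed by -2.91 (SE 0.11, adjusted p = 2.3e-23) and HIST2H2BE by -2.15 (SE 0.13, adjusted p = 5.8e-17). HIST1H2AG differed by -1.75 (SE 0.23, adjusted p = 2.3e-08) and HIST1H2BJ by -1.65 (SE 0.20, adjusted p = 3.6e-09). HIST1H4E was above 0, at 1.56 (SE 0.38, adjusted p = 0.00052), and is one of the genes named by the study's list. HIST3H2A did not pass the test, with a difference of -0.11 (SE 0.14, adjusted p = 0.53), and its log2 fold change was 0.92 and 1.00 in 501Mel and Hermes 3A cells.

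For shMITF, 4 of 22 members were called above 0, while 2% of all 19284 genes tested were, and 0 below, while 0.643% were (0 at an unadjusted p under 0.05, and 0 by DESeq2). HIST1H2AC differed by 2.65 (SE 0.38, adjusted p = 0.0036), HIST1H2BD by 1.99 (SE 0.48, adjusted p = 0.043), HIST2H2BE by 1.91 (SE 0.42, adjusted p = 0.032) and HIST1H2BK by 1.77 (SE 0.28, adjusted p = 0.0065). The count was 2 when the first shSCR2 library, the second 501Mel shMITF library or any one of the 3 Hermes 3A shSCR libraries was left out. HIST2H2BE and HIST1H2BD were the genes that lost their call in these 5 fits, with adjusted p between 0.075 and 0.20 for HIST2H2BE and between 0.11 and 0.27 for HIST1H2BD. HIST1H2BD also lost it without the second shSCR2 library (adjusted p = 0.17) or without Hermes 3A shMITF library 2 or 3 (0.050 and 0.055). The differences between lines were not fitted against the pooled scramble groups. The shMITF difference also includes the Hermes 3A shMITF libraries with their shorter list of identifiers, which cannot be told apart from shMITF.

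Start sites at most 500 bases apart, read away from each other, were found for 5 pairs of members, and the values of their genes often differed. HIST1H2BC on the minus strand and HIST1H2AC on the plus strand of chromosome 6 start 219 bases apart (GRCh38, GENCODE 29). With shBRG1 in 501Mel cells their log2 fold changes were -1.17 and 0.54, both with an adjusted p under 0.05, and with shMITF in 501Mel cells they were 1.55 and 3.24. HIST1H2BJ and HIST1H2AG, 292 bases apart, had -0.94 and -0.19 with shBRG1 in 501Mel cells and 0.68 and 1.53 with shBRG1 in Hermes 3A cells. HIST2H2BE and its neighbour HIST2H2AC, 323 bases apart on chromosome 1, had 1.37 and 0.58 with shBRG1 in Hermes 3A cells and 2.21 and -0.39 with shMITF in 501Mel cells. HIST2H2AC had at most 45 counts in a library, and its values in these comparisons did not pass the test (adjusted p = 0.15 and 0.69). The difference between the genes of a pair was not tested.

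**Figure D5:**
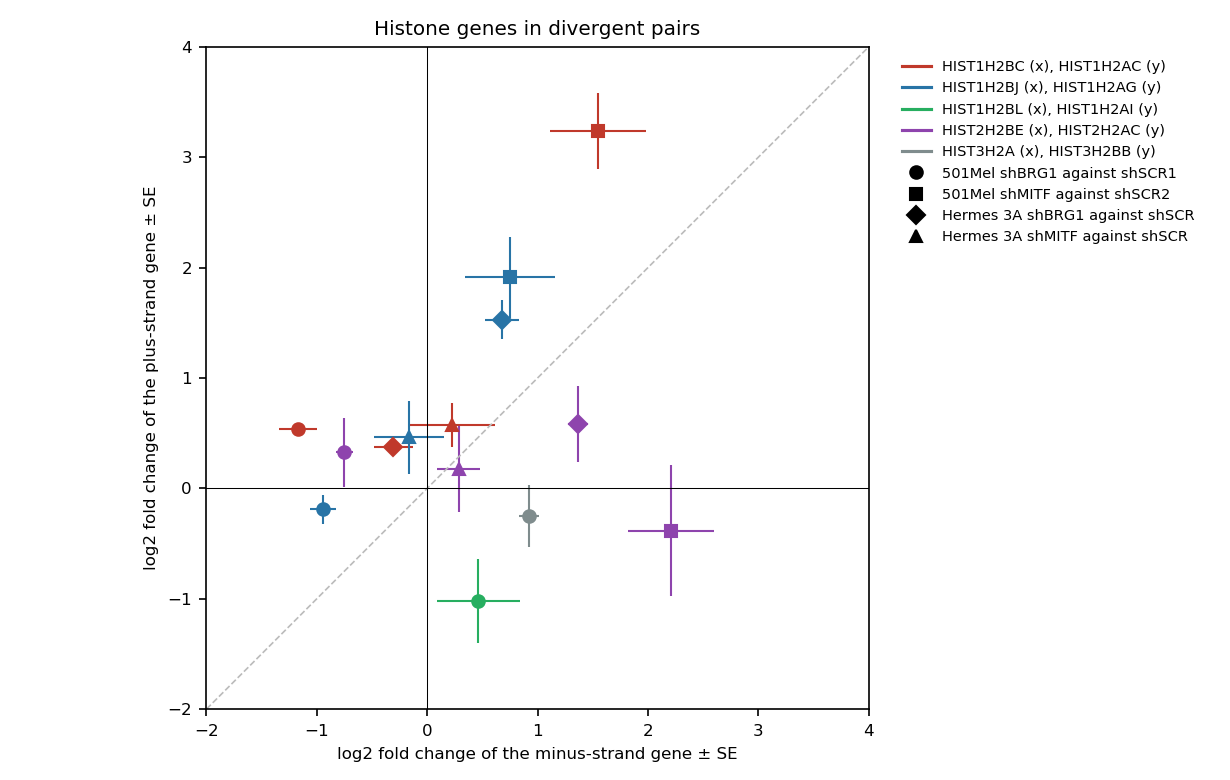
Log2 fold changes with their SE of 5 divergent histone gene pairs, the minus-strand gene on the x axis and the plus-strand gene on the y axis, with a colour for each pair and a symbol for each comparison. The dashed line marks equal change. HIST1H2BC and HIST1H2AC lie at -1.17 and 0.54 with shBRG1 in 501Mel cells.

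The genes of S phase, to which histone synthesis is tied, had a median below 0 in all 4 comparisons. Of 31 S phase genes tested, 0 were called higher and 10 lower with shBRG1 in 501Mel cells (median log2 fold change -0.78), and 0 higher and 5 lower with shMITF (median -0.73). In Hermes 3A cells 1 was called higher and 3 lower with shBRG1 (median -0.53), and 1 higher and 2 lower with shMITF (median -0.34). The shares of all genes called lower are those given above for each comparison, 17.4%, 3.4%, 3.47% and 4.04%. MCM6, a subunit of the replicative helicase, fell by 2.77 with shBRG1 (SE 0.06, adjusted p = 1.6e-21) and by 1.53 with shMITF (SE 0.12, adjusted p = 0.00025) in 501Mel cells. With both scramble groups pooled, its value with shMITF was -0.95 (adjusted p = 0.28), and MCM10 (-0.34, adjusted p = 0.76), RRM2 (-0.25, adjusted p = 0.84) and FEN1 (-0.64, adjusted p = 0.28) also lost their call. In Hermes 3A cells the calls with shMITF were lost for GINS3 without shSCR library 2 or 3 or shMITF library 2, for RRM2 with library sizes or without shMITF library 3, and for MKI67 with library sizes or without shMITF library 1. With shBRG1 there, GINS3 lost its call without shSCR library 2, and FEN1 and GINS4 with library sizes. The histone medians given above were -0.52, 1.22, 0.38 and 0.27 in the same order. Against both scramble groups pooled, both 501Mel medians changed sign, to 0.09 with shBRG1 and -0.85 with shMITF. With library sizes the shBRG1 median in 501Mel cells was -0.17.

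For the transcription of histone genes and the cutting of their messages, 25 genes were tested. With shBRG1 in 501Mel cells 1 was called higher and 4 lower (21.7% and 17.4% of all genes), and with shMITF 0 and 2 (5.59% and 3.4%). In Hermes 3A cells the counts were 0 and 0 with shBRG1 (5.78% and 3.47%) and 0 and 1 with shMITF (3.35% and 4.04%). CDK2, the kinase that acts on the histone gene coactivator NPAT, fell by 2.84 (SE 0.06, adjusted p = 2.5e-22) with shBRG1 and by 1.02 (SE 0.12, adjusted p = 0.0011) with shMITF in 501Mel cells, and by 1.32 (SE 0.32, adjusted p = 0.026) with shMITF in Hermes 3A cells. The last call was lost without any one shSCR library or without shMITF library 3 (adjusted p = 0.070, 0.092, 0.091 and 0.076), and the call with shMITF in 501Mel cells without the first shMITF library (log2 fold change -0.99), with library sizes (-0.92) and with at least 10 counts asked of every library (-0.99). The other gene called with shMITF in 501Mel cells was CCNE2, which lost its call with library sizes (-0.98) and with pooled scramble groups (-0.46, adjusted p = 0.61). CPSF3, the nuclease that cuts both histone and other messages, fell by 1.25 (SE 0.05, adjusted p = 5.2e-17) and its partner CPSF2 by 1.22 (SE 0.05, adjusted p = 5.3e-17) with shBRG1 in 501Mel cells, and ZNF473, a protein of the histone cutting machinery, rose by 1.37 (SE 0.06, adjusted p = 1.2e-16). With library sizes CPSF3 (-0.90) and CPSF2 (-0.87) lost their call.

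Of 22 histone chaperones and their partners, 0 were called higher and 5 lower with shBRG1 in 501Mel cells, where 17.4% of all genes were called lower, and none in either direction in the other comparisons. SUPT16H, a subunit of the FACT complex, fell by 1.71 (SE 0.05, adjusted p = 7.1e-20), ATRX by 1.60 (SE 0.06, adjusted p = 7.1e-18) and CHAF1A, which places H3 and H4 on new DNA, by 1.22 (SE 0.05, adjusted p = 1.0e-16). CHAF1A lost its call with library sizes (-0.87), as did RBBP7 (-0.87). Of the genes for histone variants made outside S phase, 10 or 12 were tested. CENPA, the H3 of centromeres, fell by 1.09 and H1FX by 1.05 with shBRG1 in 501Mel cells, H2AFZ fell by 1.23 with shMITF in 501Mel cells, and H1FX rose by 1.10 with shMITF in Hermes 3A cells. Both calls with shBRG1 were lost with library sizes (-0.74 for CENPA and -0.70 for H1FX) and with at least 10 counts asked of every library (-0.96 and -0.93). With pooled scramble groups H1FX was at -0.63 (adjusted p = 0.16) with shBRG1 and H2AFZ at -0.76 (adjusted p = 0.28) with shMITF.

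Markers of other cell types moved in the same comparisons. Of the fibroblast markers tested, 4 of 5 were called higher with shBRG1 in 501Mel cells (summed level 15.9 to 19.1 against 3.63 to 4.94 CPM). With shMITF there, 1 of 4 was (7.61 to 14.3 against 8.23 to 9.13 CPM). In Hermes 3A cells 2 of 5 were with shBRG1 (149 to 158 against 76.2 to 86.1 CPM) and 2 of 5 with shMITF (119 to 232 against 76.2 to 86.1 CPM). The shares of all genes called higher were 21.7%, 5.59%, 5.78% and 3.35% in this order. Of the keratinocyte markers only TP63 was called, higher with shBRG1 in 501Mel cells (1 of 3 tested, while 21.7% of all genes were). KRT5, KRT14 and KRT1 had at most 7 counts in any of the 19 libraries, DSG3 had 5 to 27 and TP63 2 to 32. KRT10 went the other way, with 898 to 2741 counts. The melanocyte list had 7, 2, 2 and 3 of 8 genes called lower in the 4 comparisons, in the order above, and none higher. The shares of all genes called lower were 17.4%, 3.4%, 3.47% and 4.04%. Both mitochondrial ribosomal RNAs were not called in any comparison. The part of these genes in the histone values was not tested.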

How the data were processed

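RNA-seq of 19 libraries from 501Mel and Hermes 3A cells was analysed. The deposited values are raw counts of reads for each Ensembl gene identifier, with no normalization by the authors. Per the labels, libraries came from total RNA depleted of ribosomal RNA and treated with a duplex-specific nuclease, which lowers abundant cDNAs, and the submitters' processing notes name TopHat 1.4.1, Bowtie 0.12.7, CASAVA 1.8 and hg19. The counting program, annotation and treatment of reads that fit several genes are not given in the sources used here, so histone genes with near-identical copies may be undercounted or shared. Of 44717 identifiers, 41130 were named from GENCODE 29, 150 from the study's supplement and 3437 not at all. No stretch of hg19 was read: coordinates are of GRCh38.

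For each knockdown, a fit held its 2 groups and no other, in edgeR 4.0.16 (R 4.3.3): TMM, filterByExpr, robust glmQLFit and glmQLFTest, with Benjamini-Hochberg adjustment. SE is the log2 fold change over the square root of F. Differences between lines were contrasts in 1 fit. Alternatives were DESeq2 1.42.0, library sizes only, other filters, a block for the replicate number, 1 fit over every group of a line, pooled scramble groups and each library left out. On simulated counts with a log2 change of 2 in 200 genes, the fits recovered 200, 190, 200 and 192 in the 4 comparisons and 198 and 160 in the 2 differences. Of the unchanged genes, 1, 9, 5 and 8 were called in the comparisons and 8 and 15 in the differences. Only well-counted genes were changed, so recovery of low-count members or of smaller changes was not measured. Tables were made in Python 3.11.15 with pandas 2.3.3, numpy 2.4.6 and matplotlib 3.10.9.

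The members and gene lists were chosen with earlier results of these data known. Named members are, by rule, up to 8 called genes per direction and comparison with at least 100 counts on average in the higher group and the leading gene of each class. Other called or contrasting members were named after their values were seen, to complete the counts. From each list up to 4 called genes with at least 100 counts could be named.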

Additional observations from a re-analysis of the deposited data

Results flagged for a closer look

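The effect of shBRG1 on 7 histone genes differed between 501Mel and Hermes 3A cells by the test of the difference itself, given as the log2 fold change in 501Mel cells minus that in Hermes 3A cells. It was -2.91 for HIST1H1C, whose log2 fold changes were -2.50 and 0.37, and -2.15 for HIST2H2BE (-0.75 and 1.37). It was -1.75 for HIST1H2AG (-0.19 and 1.53), -1.65 for HIST1H2BJ (-0.94 and 0.68) and -1.44 for HIST2H2BF (-1.35 and 0.06). HIST1H4J differed by -1.42 (-0.98 and 0.42), on at most 18 counts in a 501Mel library of this comparison, and with most of its sequence shared with other genes. HIST1H4E differed by 1.56 (1.21 and -0.40).

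The effect of shMITF differed in 4 genes: by 2.65 in HIST1H2AC (log2 fold changes 3.24 and 0.57), 1.99 in HIST1H2BD (2.20 and 0.19), 1.77 in HIST1H2BK (2.06 and 0.27) and 1.91 in HIST2H2BE (2.21 and 0.28). HIST2H2BE and HIST1H2BD lost this call in several of the fits that left out 1 library. For all 4 genes the shSCR2 libraries were the lowest of the 7 groups. No group has the 4 samples needed to look by a fixed rule for single libraries that lie far out. The Hermes 3A libraries said above to stand apart were named from their values alone.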

How the results depend on the processing

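Against both scramble groups pooled, 0 members were called lower with shBRG1 and 0 higher with shMITF in 501Mel cells, and these values changed sign: HIST1H2BK (0.12) and HIST1H3E (0.0622) with shBRG1, and HIST1H1C (-1.98), HIST1H2AC (-0.97), HIST1H2BC (-1.02), HIST1H2BD (-1.37), HIST1H2BN (-0.0694), HIST2H2BE (-1.11), HIST1H3D (-1.32) and SMARCA4 (0.29) with shMITF. For shBRG1 in 501Mel cells, with the median of all genes 0.35 higher, 1 member was called lower with library sizes instead of TMM, and 7 with no filter on low counts, and without the genes named by the study's list, chosen after seeing the data, 0 were called higher. With all 501Mel groups in 1 fit, 2 members were called lower with shMITF. For the shBRG1 difference between lines, 2 members were called above 0 under DESeq2, library sizes alone and the replicate block.

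When 1 library was left out, the members called lower with shBRG1 in 501Mel cells ranged from 2 to 6, those called higher with shMITF from 7 to 8, the Hermes 3A shBRG1 calls from 2 to 3, and the shBRG1 and shMITF differences above 0 from 1 to 2 and from 2 to 4. In Hermes 3A cells HIST1H3D lay between -0.12 and 0.16 (shBRG1) and between -0.73 and 0.13 (shMITF), and was called in neither. The causes were not tested, and the shares of all genes called under these other settings are not given.

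Same-numbered libraries did not deviate together (correlations from -0.0489 to 0.0492 in the comparisons with 3 pairs, and 0.131 with 2 pairs), so the numbers were not read as pairs. With the replicate block the members called lower with shBRG1 in 501Mel cells were 3, those called higher with shMITF 10, and those called higher with shBRG1 in Hermes 3A cells 3. Members under 20 counts, 11 of 36, are too shallow for a fold to be read.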
